A study of Mus musculus with 14 samples.

Results

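The 9 genes of the epidermal lipid barrier described here were measured in cultured mouse keratinocytes and in newborn mouse epidermis of 2 Trp63 genotypes. They are Elovl4, Cers3, Cyp4f39, Pnpla1, Ugcg, Abca12, Alox12b, Aloxe3 and Sdr9c7. The genes were chosen by name for their place in the ceramide pathway, with earlier results of these data known. All 9 were found among the 23387 genes present in both the keratinocyte and the epidermis table. None of the 9 passed the test between genotypes, where 0.101% of all tested genes did in keratinocytes and 0.232% in epidermis. In p63alpha, 6 of the 9 were at least 4-fold higher in epidermis than in culture, where 9.19% of all genes were. The 2 kinds of sample were counted by different tools.

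The water barrier of the skin lies in the stratum corneum, where sheets of ceramides with very long, omega-hydroxylated fatty acids surround the dead cells. These acylceramides are made in the upper living layers, glucosylated, packed into lamellar granules and secreted, and a part of them is then oxidised by lipoxygenases and bound to the protein envelope of the cell. Inherited loss of many of these enzymes causes ichthyosis, a scaling skin disease with a leaky barrier.

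The transcription factor p63 has several C-terminal forms, and the alpha form needs exon 13 of Trp63. Control newborn mice were homozygous for a floxed exon 13 (Trp63-Ex13fl/fl, called p63alpha), and the other group carried the same floxed alleles together with KRT14-Cre (called p63beta), so both groups share the floxed alleles and the KRT14 promoter limits Cre to cells that use it or descend from cells that did. There were 3 keratinocyte libraries and 4 epidermis libraries of each genotype. The keratinocytes were primary cells of newborn skin grown at low calcium, a condition that keeps them proliferating, and the epidermis was lifted from the dermis with trypsin overnight. No label ties a library to one animal, so p-values here reflect only how far libraries of a group spread, which may be technical.

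Keratinocyte libraries held between 20688027 and 30066041 assigned read pairs, and epidermis libraries between 21290056 and 44909616 estimated counts. Levels are given as CPM (counts scaled by TMM to a common library size), or as TPM (also scaled by gene length) where genes are compared with each other. Trp63 itself averaged 183 ± 8.12 CPM (SD, n = 3) in p63alpha and 364 ± 24.2 CPM (SD, n = 3) in p63beta keratinocytes. In epidermis it was 437 ± 158 CPM (SD, n = 4) and 640 ± 112 CPM (SD, n = 4), and these totals over the gene do not show whether exon 13 is present. In culture the 6 basal keratinocyte markers summed to between 24704 and 38139 TPM per library, whereas the 6 suprabasal markers summed to between 587 and 1857 TPM. In epidermis the suprabasal markers summed to between 77763 and 115994 TPM. Markers of other cells were also read: the 7 muscle markers summed to 4252 TPM in p63beta keratinocyte library 3 and to between 124 and 391 TPM in the other keratinocyte libraries. The 6 melanocyte markers summed to between 441 and 1637 TPM in p63alpha and between 837 and 1046 TPM in p63beta keratinocytes. In epidermis the melanocyte markers summed to between 78.1 and 228 TPM in p63alpha and between 241 and 350 TPM in p63beta. Their part in the values below was not tested. In samples of this kind, fewer cells of a type and less RNA per cell cannot be told apart.

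Upstream windows are shown for 3 genes that stood far higher in tissue than in culture (Alox12b, Sdr9c7 and Pnpla1) and for Cers3, whose level was close in both. Each window is the 250 bases before the RefSeq start, 5′ to 3′ in the direction of the gene, from the RefSeq table of build GRCm38.p6, which held windows for 8 of the 9 genes. Capitals mark matches to any of 7 motifs searched on both strands.
Alox12b: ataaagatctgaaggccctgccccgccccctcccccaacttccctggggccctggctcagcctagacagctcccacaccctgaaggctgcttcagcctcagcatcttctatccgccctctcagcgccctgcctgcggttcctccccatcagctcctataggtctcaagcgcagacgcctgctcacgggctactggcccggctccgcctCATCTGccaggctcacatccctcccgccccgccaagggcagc
Sdr9c7: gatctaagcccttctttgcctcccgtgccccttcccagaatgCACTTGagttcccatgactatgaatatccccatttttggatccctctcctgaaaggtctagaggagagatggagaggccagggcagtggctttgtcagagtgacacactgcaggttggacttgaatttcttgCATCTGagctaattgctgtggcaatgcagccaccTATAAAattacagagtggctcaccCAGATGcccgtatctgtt
Pnpla1: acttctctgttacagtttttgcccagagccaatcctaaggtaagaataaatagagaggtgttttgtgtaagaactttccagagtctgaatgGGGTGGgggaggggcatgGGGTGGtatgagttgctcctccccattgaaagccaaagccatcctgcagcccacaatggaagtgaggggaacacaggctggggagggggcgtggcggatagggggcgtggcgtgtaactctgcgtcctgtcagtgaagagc
Cers3: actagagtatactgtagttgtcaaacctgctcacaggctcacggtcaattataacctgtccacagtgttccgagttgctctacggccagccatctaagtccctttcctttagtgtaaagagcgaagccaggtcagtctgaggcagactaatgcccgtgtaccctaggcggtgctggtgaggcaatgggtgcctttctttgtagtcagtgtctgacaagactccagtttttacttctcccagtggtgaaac
The windows lie on the plus strand at chr11:69156822-69157071, chr10:127898285-127898534, chr17:28858161-28858410 and chr7:66743254-66743503. The Sdr9c7 window held a TATA box (TATAAA) at -42 to -37 from the start, a motif found in 12.4% of the 32851 RefSeq windows of the same length. It also held 3 matches to the E-box CANNTG, and the Alox12b window held 1, at -42 to -37. The E-box was found in 4 of the 8 windows (Abca12, Alox12b, Elovl4 and Sdr9c7), against 66.2% of all windows. Pnpla1 had 2 matches to the CACCC box (CCACCC) on the minus strand, a motif in 28.1% of all windows, and none of the other 7 windows had one. No window of the 8 matched AP-1 (TGANTCA, in 6.75% of all windows), a pair of p53 family cores (CATG, any 6 bases, CATG, 0.49%), grainyhead-like (AACCNGTT, 1.79%) or C/EBP (TTGCNNAA, 9.56%), which says only that these letters are not in this stretch. GC content ran from 49.6% in Cers3 and Sdr9c7 to 66.0% in Alox12b, 69.6% in Elovl4 and 80.4% in Ugcg, and its median over all windows was 52.4%. The 3 genes that stood highest over culture shared no searched motif among all 3 of them.

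Alox12b and Aloxe3 are neighbours. Aloxe3 lies at chr11:69126377-69149115 and Alox12b at chr11:69157072-69169791 of mm10, both on the plus strand with 15 annotated exons each, and 7956 bases separate them. Pnpla1 (chr17:28858411-28890308) and Cyp4f39 (chr17:32452723-32493320) share a chromosome but are not adjacent. Abca12 is the largest of the 9, with 53 exons at chr1:71243090-71414910 on the minus strand, and Elovl4 lies at chr9:83778692-83806305, also on the minus strand. Cers3 (chr7:66743504-66823692), Ugcg (chr4:59189550-59222833) and Sdr9c7 (chr10:127898535-127911761) are on the plus strand. Keratinocyte reads were counted over exons, whereas the epidermis values were estimated counts from another tool.

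The first comparison asked whether the lipid barrier genes differed between p63beta and p63alpha keratinocytes. By edgeR's quasi-likelihood test with Benjamini-Hochberg adjustment over all genes, 0 of the 9 passed an adjusted p of 0.05, where 14 of 13820 genes did (0.101%). None of the 9 reached an unadjusted p under 0.05, against 947 genes (6.85%). DESeq2 also called none of the 9, where it called 211 of 20184 genes (1.05%). In every one of the 9 genes the values of the 2 genotypes overlapped, while 12.3% of all genes had groups that did not overlap. The fold change of p63beta over p63alpha lay between 0.757 and 1.24, and the median log2 fold change of the 9 genes was 0.03 beside a median of 0.00 over all genes.

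Elovl4, which elongates fatty acids to the very long chains of acylceramides, was read at 210, 101 and 76.9 CPM in p63alpha keratinocyte libraries 1, 2 and 3 and at 223, 85.8 and 94.7 CPM in p63beta libraries 1, 2 and 3. Library 1 of each genotype was more than 2 times the others, and the genotypes interleaved. Cers3, the synthase that joins these chains to a sphingoid base, was at 158, 175 and 136 CPM in p63alpha and 110, 133 and 141 CPM in p63beta libraries. Cers3 did not share the high library 1: its p63beta library 1 was the lowest of the 6. Its log2 fold change was -0.29 ± 0.13 (SE), with a 95% interval of the fold from 0.655 to 1.02 and an adjusted p of 0.759 in edgeR's quasi-likelihood test.

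Cyp4f39, the mouse fatty acid omega-hydroxylase of this pathway, was at 28.8, 29.9 and 17.1 CPM in p63alpha and 26.6, 17.6 and 13.3 CPM in p63beta keratinocytes. The p63beta library was the lower of the 2 in each of the 3 pairs of equal number, by -0.11, -0.77 and -0.37 on the log2 scale, although the groups overlapped. Pnpla1, which transfers linoleate onto omega-hydroxyceramide, was low throughout, at 9.14, 5.24 and 4.42 CPM in p63alpha and 10.7, 4.87 and 4.09 CPM in p63beta. Its smallest p63alpha value stood for 93 counted read pairs, and the 2 genotypes interleaved.

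Ugcg, the glucosylceramide synthase, was at 105, 61.7 and 53.7 CPM in p63alpha and 93.3, 51.3 and 59.0 CPM in p63beta keratinocytes, again with library 1 highest in each genotype. Abca12, which loads glucosylceramides into lamellar granules, was at 275, 223 and 192 CPM in p63alpha and at 253, 277 and 300 CPM in p63beta. In p63beta, library 1 was the lowest for Abca12, the reverse of its place in p63alpha. The log2 fold change of Abca12 was 0.27 ± 0.15 (SE), with an interval of the fold from 0.939 to 1.54 and an adjusted p of 0.819 in edgeR.

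The 3 oxidising enzymes were the least abundant apart from Pnpla1. Alox12b, the lipoxygenase that acts on the linoleate of acylceramides, was at 10.5, 4.08 and 2.76 CPM in p63alpha and at 9.01, 6.37 and 6.09 CPM in p63beta keratinocytes. Aloxe3, which turns its product into an epoxyalcohol, was at 15.4, 8.46 and 7.94 CPM in p63alpha and 17.4, 8.00 and 7.10 CPM in p63beta. Sdr9c7, the dehydrogenase that oxidises that epoxyalcohol further, was at 9.59, 5.14 and 3.85 CPM in p63alpha and 9.11, 4.35 and 4.86 CPM in p63beta. All 3 were highest in library 1 of both genotypes. For Alox12b the interval of the fold ran from 0.53 to 2.90, which includes a 2-fold rise as well as no change.

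For most of the 9 genes the keratinocyte libraries differed more by number than by genotype. Library 1 was the highest of its genotype for 7 of the 9 genes in p63alpha (all but Cers3 and Cyp4f39) and for 7 of the 9 in p63beta (all but Abca12 and Cers3), and p63alpha library 3 was the lowest of p63alpha for all 9. Library 1 was 2.36 and 2.47 times the mean of libraries 2 and 3 for Elovl4 (p63alpha and p63beta) and 2.13 and 1.98 times that mean for Sdr9c7. For Cers3 it was 1.02 times the mean in p63alpha and 0.807 times, so below it, in p63beta. The summed granular layer markers moved the same way, at 1702, 624 and 385 TPM in p63alpha and 1502, 340 and 328 TPM in p63beta. The summed suprabasal markers did so too, at 1857, 799 and 612 TPM and 1663, 678 and 587 TPM. Each sum rested largely on a single gene. In culture Krtdap averaged 1046 TPM in p63alpha and 940 TPM in p63beta, while Krt1 and Krt10 averaged 6.20 to 9.33 TPM in either genotype. Klk7 averaged 577 and 429 TPM, beside 163 and 88.1 TPM for Cdsn, and Lor averaged 4.46 and 4.17 TPM. Ivl went the other way, at 43.3 and 122 TPM (log2 fold change 1.47 ± 0.46 SE, adjusted p = 0.575 in edgeR). Of the 7 granular markers tested between genotypes in culture, 3 had a positive log2 fold change and 0 were called. The 7 immune markers were also highest in library 1 of each genotype, at 109.5 TPM in p63alpha and 100.5 TPM in p63beta. These were 3.53 and 3.85 times the mean of libraries 2 and 3, and the other 4 libraries held 8.45 to 43.7 TPM. Most of the immune sum was Lyz2, a gene of macrophages. Cd74 and H2-Aa averaged 1.59 and 0.259 TPM in p63alpha culture, and 4.94 and 1.93 TPM in p63beta culture. The Langerhans cell gene Cd207 was listed at 0 in all p63alpha keratinocyte libraries and averaged 0.0171 TPM in p63beta keratinocytes. In p63alpha and p63beta epidermis Cd207 was also near 0, at 0.095 and 0.0783 TPM. The basal markers were lowest in the 2 libraries numbered 1 (24704 and 25493 TPM). The part of this shift in the genotype comparison was tested only through the replicate block, and the part of the marker shifts was not tested.

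**Figure D1:**
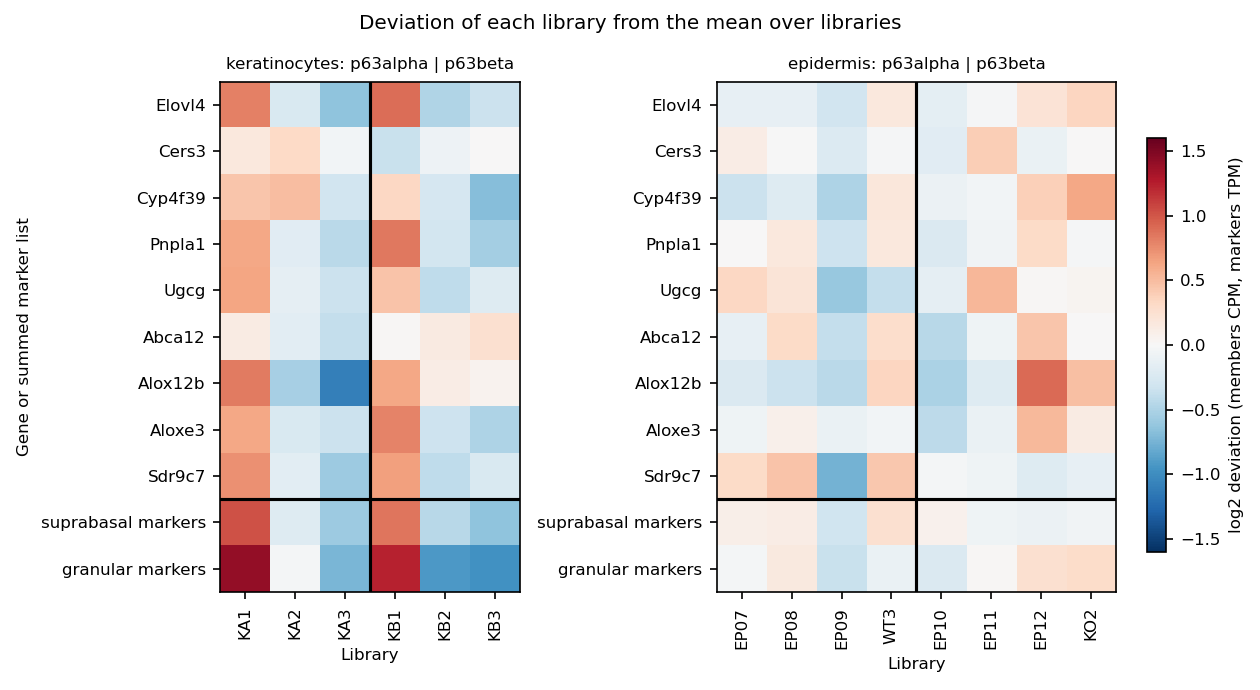
Each column is a library and each row a gene or a summed marker list, with colour giving the log2 deviation from the row's mean over the libraries of that kind (CPM for genes, TPM for markers). In keratinocytes, libraries KA1 and KB1 (library 1 of p63alpha and p63beta) are high for most of the 9 genes and for the suprabasal and granular markers, but not for Cers3; in epidermis, EP09 is low.

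When the replicate number entered the fit as a block, the standard errors of the 9 log2 fold changes ran from 0.10 to 0.29 in place of 0.13 to 0.51, and 8 of the 9 intervals lay within a 2-fold change in either direction, against 3 of 9 without it. The block raised the count of called genes from 14 to 37 of 13820 (0.268%), still with 0 of the 9 lipid genes. Elovl4 then had a fold of 1.04 (95% interval 0.841 to 1.28), Ugcg 0.932 (0.782 to 1.11), Aloxe3 0.988 (0.792 to 1.23) and Sdr9c7 1.003 (0.728 to 1.38). Cyp4f39 had a fold of 0.75 (0.577 to 0.974) and an unadjusted p of 0.0369, which edgeR adjusted to 0.353. It was the only one of the 9 under an unadjusted p of 0.05 in that fit, where 12.9% of all genes were. The labels do not say that equal numbers mark pairs, so the narrower intervals rest on that reading.

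In newborn epidermis the same question gave the same count: 0 of the 9 genes passed, where 32 of 13796 did (0.232%). None of the 9 reached an unadjusted p under 0.05, against 640 genes (4.64%). DESeq2 called none of the 9, where it called 152 of 18305 genes (0.83%). The groups overlapped for all 9 genes, whereas 3.07% of all genes had groups that did not. The folds lay between 0.819 and 1.35, with standard errors of 0.16 to 0.31 on the log2 scale, and 8 of 9 intervals lay within a 2-fold change. The median log2 fold change of the 9 genes was 0.11, beside 0.00 over all genes.

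Elovl4 was at 894, 892, 792 and 1094 CPM in p63alpha epidermis (libraries EP07, EP08, EP09 and WT3, in this order throughout) and at 877, 962, 1139 and 1243 CPM in p63beta epidermis (EP10, EP11, EP12 and KO2). Cers3 was at 210, 192, 165 and 190 CPM in p63alpha and at 169, 252, 179 and 193 CPM in p63beta, the narrowest p63alpha spread after Aloxe3. Pnpla1 was at 171, 191, 136 and 192 CPM in p63alpha and 145, 164, 211 and 168 CPM in p63beta. For these 3 genes the means of the genotypes differed by less than the range within either genotype.

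Cyp4f39 was at 127, 139, 115 and 182 CPM in p63alpha and at 150, 155, 209 and 247 CPM in p63beta epidermis. Only library WT3 of p63alpha reached the p63beta values. The log2 fold change was 0.44 ± 0.21 (SE), with a 95% interval of the fold from 0.981 to 1.87, an unadjusted p of 0.0625 and an adjusted p that rounds to 1 in edgeR. Cyp4f39 was higher in p63beta by 0.43 on the log2 scale among the libraries with EP names and by 0.44 between KO2 and WT3. The names form 2 styles, which were used as a check because the labels give no batch.

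Cyp4f39 therefore had a positive estimate in epidermis and a negative one in keratinocytes. The difference between the 2 effects was 0.86 ± 0.39 (SE) on the log2 scale, a ratio of folds of 1.81 (95% interval 1.01 to 3.25) with an unadjusted p of 0.047, in a model without a term for the replicate number. After adjustment over the 14735 genes of the joint edgeR fit it did not pass (its adjusted p rounds to 1). That fit called 0 genes (0.0%), with 618 genes under an unadjusted p of 0.05 (4.19%). Among the 9 only Cyp4f39 was under it. DESeq2 called 13 of 19279 genes (0.0674%) for this difference and none of the 9. With the number of the keratinocyte libraries as a block, a fit added after the data were seen, the difference was 0.87 ± 0.31 (ratio 1.83, interval 1.13 to 2.94) with an unadjusted p of 0.0173 and an adjusted p that again rounds to 1. That fit also called 0 genes (0.0%), with 606 (4.11%) under an unadjusted p of 0.05. Over all alternatives tried, the difference for Cyp4f39 ran from 0.65 to 1.17.

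Ugcg was at 181, 166, 95.1 and 111 CPM in p63alpha and at 131, 209, 146 and 148 CPM in p63beta epidermis. Abca12 was at 329, 446, 277 and 440 CPM in p63alpha and 265, 343, 490 and 361 CPM in p63beta. The genotypes overlapped over most of their range for both genes.

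Alox12b had the widest spread in epidermis, at 414, 383, 362 and 616 CPM in p63alpha and 343, 424, 912 and 679 CPM in p63beta. Its 2 highest values were in p63beta and so was its lowest, and the log2 fold change was 0.41 ± 0.31 (SE; interval of the fold 0.827 to 2.13). Aloxe3 was at 177, 196, 171 and 180 CPM in p63alpha and 139, 172, 266 and 203 CPM in p63beta, with the same library, EP12, at the top. Sdr9c7 was at 275, 305, 132 and 302 CPM in p63alpha and 219, 214, 194 and 205 CPM in p63beta. For Sdr9c7, 3 p63alpha libraries stood above every p63beta library and EP09 stood below all of them, giving a log2 fold change of -0.29 ± 0.24 (SE; interval of the fold 0.565 to 1.19).

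EP09 was the lowest p63alpha library for all 9 genes and the lowest of all 8 libraries for 6 of them. Its granular markers summed to 10398 TPM, against 11358 to 16291 TPM in the other libraries, and its hair follicle markers to 576 TPM, against 42.5 to 163 TPM. EP10 was the lowest p63beta library for 8 of the 9 genes, with granular markers at 11358 TPM, and EP12 was the highest of all 8 for Abca12, Alox12b, Aloxe3 and Pnpla1, with granular markers at 15943 TPM. Their part in the genotype comparison was not tested, beyond the fits that left out each library, in which 0 of the 9 genes passed.

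**Figure D2:**
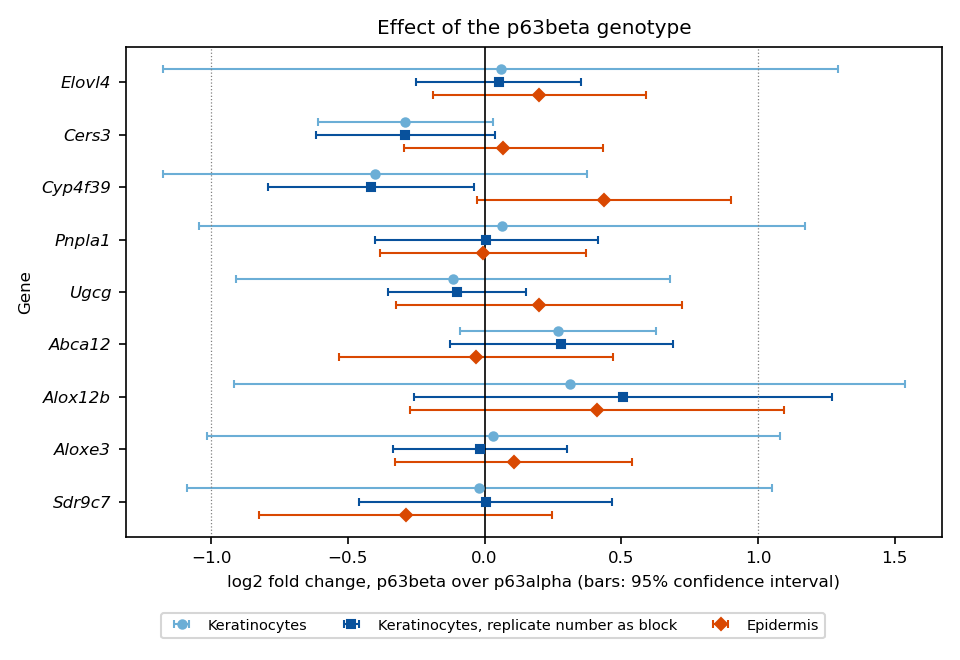
The log2 fold change of p63beta over p63alpha is shown for each gene with its 95% confidence interval, for keratinocytes (fitted without a block, and blocked on replicate number) and for epidermis. All 9 intervals cross 0 in keratinocytes without the block and in epidermis, and with the block that of Cyp4f39 (fold 0.577 to 0.974) does not.

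In the authors' deposited tables, the adjusted p of the 9 genes was lowest for Cers3 in keratinocytes (0.675) and for Cyp4f39 in epidermis (0.95).

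Culture and tissue were then set side by side in TPM. The tables of the 2 kinds of sample were made with different counting tools, so tool and kind of sample cannot be told apart and no test was made. Among 13206 genes above 1 TPM in either p63alpha group, 9.19% were at least 4-fold higher in epidermis and 12.7% at least 4-fold lower. Of the 9 lipid barrier genes, 6 were at least 4-fold higher and 0 at least 4-fold lower. Their median fold was 5.40, or 2.43 on the log2 scale, beside a median of -0.68 over all genes.

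The rise was steepest for the oxidising enzymes and Pnpla1. Alox12b was at 5.54 TPM in p63alpha keratinocytes and at 326 TPM in p63alpha epidermis, a 58.8-fold difference. Without p63alpha keratinocyte library 1 its culture mean was 3.24 TPM and the fold 101, and without it the folds of the other 8 genes moved by less than 1.5 times. Sdr9c7 was at 4.89 and 152 TPM (31.2-fold), Pnpla1 at 3.14 and 64.9 TPM (20.6-fold) and Aloxe3 at 9.39 and 125 TPM (13.3-fold). The highest keratinocyte library of each of these 4 genes was below the lowest epidermis library. Elovl4 stood at 95.2 and 515 TPM (5.40-fold) and Cyp4f39 at 21.7 and 92.5 TPM (4.27-fold).

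Ugcg, Abca12 and Cers3 stood nearest to equal levels in culture and tissue. They were abundant in culture, but so was Elovl4 (95.2 TPM in p63alpha). Ugcg was at 44.4 TPM in keratinocytes and 63.9 TPM in epidermis (1.44-fold), and Abca12 at 62.0 and 74.2 TPM (1.20-fold). Cers3 was at 108 and 100 TPM, a log2 difference of -0.11 that became 0.30 when CPM were used in place of TPM. In p63beta the folds came out in nearly the same order, from 58.5 for Alox12b, 24.1 for Sdr9c7, 18.1 for Pnpla1 and 12.7 for Aloxe3 to 6.96 for Cyp4f39, 5.45 for Elovl4, 1.63 for Ugcg, 1.10 for Cers3 and 0.899 for Abca12. Again 6 of the 9 were at least 4-fold higher in epidermis, where 8.06% of 13295 genes were and 15.6% were at least 4-fold lower.

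**Figure D3:**
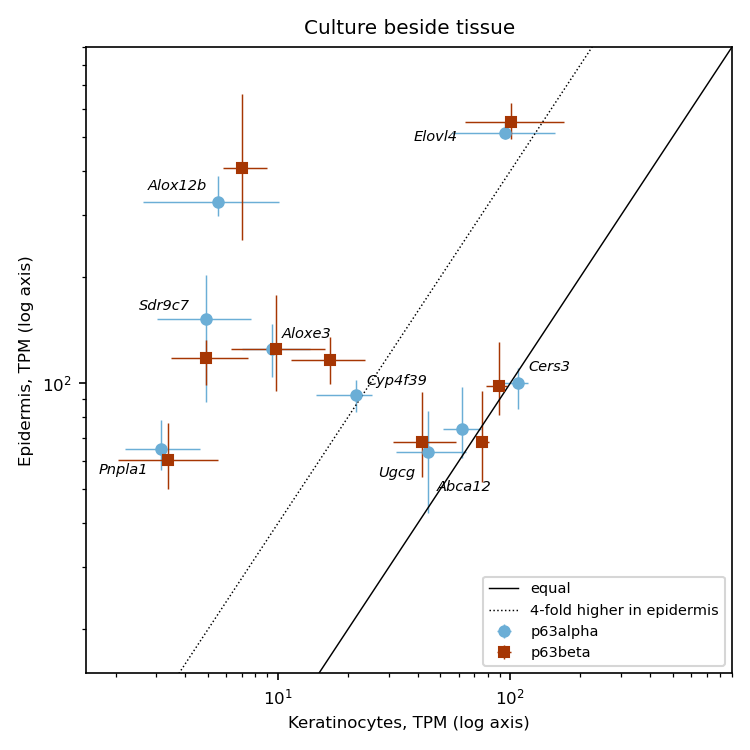
Mean TPM in epidermis is plotted against mean TPM in keratinocytes on log axes for each gene and genotype, with bars from the lowest to the highest library. Alox12b, Sdr9c7, Pnpla1 and Aloxe3 lie far above the dotted line of a 4-fold difference, and Cers3, Abca12 and Ugcg lie near the line of equal levels.

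The order of the genes changed with it. In p63alpha keratinocytes Cers3 (108 TPM), Elovl4 (95.2), Abca12 (62.0) and Ugcg (44.4) overlapped each with the next, Ugcg stood above Cyp4f39 (21.7) and Cyp4f39 above Aloxe3 (9.39) without overlap, and Aloxe3, Alox12b, Sdr9c7 and Pnpla1 overlapped each with the next. In p63alpha epidermis Elovl4 (515 TPM) stood above Alox12b (326) and Alox12b above Sdr9c7 (152) without overlap, while every further neighbour from Sdr9c7 through Aloxe3, Cers3, Cyp4f39, Abca12 and Pnpla1 to Ugcg overlapped. Between the highest and the lowest of the 9 genes lay 34.3-fold in p63alpha culture and 8.06-fold in p63alpha epidermis. In p63beta the same figures were 30.2-fold and 9.10-fold.

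The 2 lipoxygenases exchanged places. In each of the 6 keratinocyte libraries Alox12b was below Aloxe3 in TPM, with a ratio of 0.544 ± 0.181 (SD, n = 3) in p63alpha and 0.783 ± 0.196 (SD, n = 3) in p63beta. In each of the 8 epidermis libraries Alox12b was above Aloxe3, with a ratio of 2.67 ± 0.723 (SD, n = 4) in p63alpha and 3.19 ± 0.579 (SD, n = 4) in p63beta. The ratios ran from 0.376 to 0.927 in culture and from 2.13 to 3.73 in tissue, and within each kind the genotypes overlapped. The ratio is taken within a library, so the depth of the library drops out of it, but the counting tool does not.

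**Figure D4:**
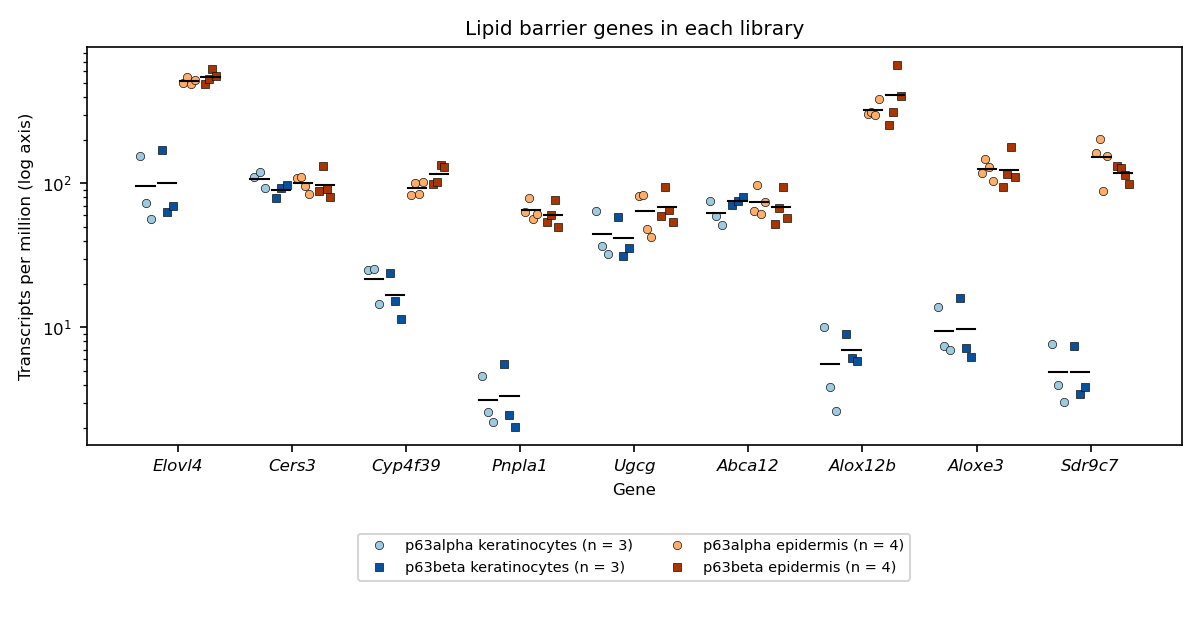
Each point is a library and each bar a group mean in TPM on a log axis, for the 4 groups of each gene. The tissue values of Alox12b, Sdr9c7, Pnpla1 and Aloxe3 stand far above culture, those of Cers3, Ugcg and Abca12 do not, and the 2 genotypes overlap in each gene and kind of sample.

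The wider pathway was read from 9 lists with 156 genes in all. In keratinocytes 0 of their 136 tested genes passed in edgeR's quasi-likelihood test, with 13 (9.56%) under an unadjusted p of 0.05, against 6.85% of all genes, and a median log2 fold change of -0.02. DESeq2, which called 211 of 20184 genes, called 4 of them, all lower in p63beta: the fatty acid desaturase Scd1 (-0.85 on the log2 scale, adjusted p = 9.7e-05), the envelope crosslinking enzyme Tgm1 (-0.85), the retinol dehydrogenase Sdr16c5 (-1.23) and the fatty acid activating enzyme Acsl5 (-0.31). By edgeR, Tgm1 was at 196 ± 40.2 CPM in p63alpha and 110 ± 12.4 CPM in p63beta (SD, n = 3 each; adjusted p = 0.305), and Sdr16c5 at 16.0 ± 3.67 and 6.88 ± 2.35 CPM (adjusted p = 0.447), both without overlap between genotypes, as was seen for 12.3% of all genes. Among the sphingoid base and ceramide synthesis genes the largest log2 fold change was that of Sptlc3, a subunit of serine palmitoyltransferase, at -0.80 ± 0.29 (SE), and none of the 14 tested passed. In the other lists the largest were read among genes with a mean of at least 5 CPM. They were 1.02 for Acsl1, -0.40 for Gltp, -0.88 for Ptgs1, -0.63 for Dhcr7, -0.92 for Cdsn and -0.48 for Grhl1, none of which passed.

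In epidermis 1 of 142 tested pathway genes passed (0.704%, against 0.232% of all genes), with 5 (3.52%) under an unadjusted p of 0.05, against 4.64% of all genes, and a median log2 fold change of 0.04. It was Ptgs2, the inducible prostaglandin synthase, which was read at 2.90 ± 1.67 CPM in p63alpha and 51.9 ± 27.3 CPM in p63beta (SD, n = 4 each; log2 fold change 4.15 ± 0.62 SE; adjusted p = 0.0301 in edgeR). The call was lost when EP07, EP08, EP09, EP10, EP11 or KO2 was left out (adjusted p from 0.0857 to 0.128), with no filter on low counts (0.0712) and among the EP libraries alone (0.114), and over all alternatives the adjusted p ran from 1.5e-12 with DESeq2 to 0.128. Among genes with a mean of at least 5 CPM, the largest log2 fold changes in the other lists included 1.30 for Degs2, which makes phytoceramides. Others were 0.78 for Hopx, -0.59 for Acer2 and 0.39 for Sult2b1. Those of the remaining lists were 0.36 for Elovl3, 0.32 for Klk5, 0.32 for Pnpla2 and -0.32 for Idi1. None of these genes passed. Degs2 spanned 13.98 to 25.7 CPM in p63alpha and 14.7 to 110 CPM in p63beta.

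Set beside culture in p63alpha, the other genes of the pathway were uneven. Of all genes 9.19% were at least 4-fold higher in epidermis and 12.7% at least 4-fold lower. Of 15 genes of sphingoid base and ceramide synthesis above 1 TPM, 3 were at least 4-fold higher in epidermis: Degs2 (1.76 and 30.3 TPM), Sptlc3 (8.06 and 79.2 TPM) and the fatty acid 2-hydroxylase Fa2h (0.0284 and 14.6 TPM). The synthases Cers2 (77.6 and 11.5 TPM) and Cers6 (41.9 and 4.68 TPM), which make ceramides of shorter chains, were at least 4-fold lower, so Cers3 exceeded both by a wider margin in tissue. Of 23 genes of fatty acid synthesis, elongation and activation, 5 were higher, among them Elovl1 (157 and 852 TPM), and 1 was lower (Fads2). Of 15 further ichthyosis and acylceramide genes, 6 were higher (Asprv1, Casp14, Dgat2, Lipk, Lipm and Lipn) and 0 lower. Of 18 genes of ceramide processing, 5 were higher, among them the alkaline ceramidase Acer1 (1.12 and 133 TPM) and the sphingomyelinase Smpd3 (2.22 and 112 TPM), and 2 were lower (B4galt5 and Sgms2). Of 7 other lipoxygenase and hepoxilin genes, 4 were higher (Alox12, Alox12e, Ephx2 and Ptgs1) and 2 lower, Ephx1 and Ptgs2 (967 and 1.24 TPM). Of 12 relatives of Cyp4f39, Sdr9c7 and Pnpla1, 4 were higher (Rdh12, Sdr16c5, Sdr16c6 and Pnpla5, the last listed at 0 in culture) and 2 lower (Cyp4f16 and Cyp4f17). Of 12 ABCA transporter and lamellar granule genes, 3 were higher and 1 lower (Abca1), of 16 cholesterol synthesis genes 2 were higher and 0 lower, and of 17 lipid regulators 4 were higher and 0 lower.

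The genes most like the 9 were looked for by the root mean square difference between a gene's centred log2 CPM profile and the mean profile of the 9. Only genes with a mean of at least 5 CPM were used. Pseudogenes, genes without a symbol and genes with provisional names (Gm, Rik, LOC and similar) were passed over when the nearest were named. Over the 6 keratinocyte libraries and 10350 genes the nearest were Obfc1 (0.0409), Fam64a (0.0625), Tmem30b (0.0677), Atp2b4 (0.0725) and Fam114a1 (0.0763), against a median of 0.399 over all genes. Among the 9 themselves, Ugcg (0.0972) and Sdr9c7 (0.12) lay nearest to the mean profile and Cers3 (0.439) farthest. Over the 8 epidermis libraries and 10289 genes the nearest were Minpp1 (0.0691), the suprabasal gene Sbsn (0.0806), Lrp10 (0.0825), Mpzl3 (0.0865) and Nfkbib (0.0901), with a median of 0.343. Pnpla1 (0.09) lay nearest among the 9 there, and Alox12b (0.331) and Sdr9c7 (0.326) farthest.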

How the data were processed

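RNA of cultured keratinocytes (6 libraries) and of newborn epidermis (8 libraries) was sequenced from a stranded mRNA kit, per the labels' protocols. Keratinocyte counts per gene, as deposited, come from featureCounts 1.5.2 with strand setting 2, per the file headers. The deposited FPKM matched a recomputation from counts and exon lengths within a relative error of 2.8e-07. For epidermis the authors deposited expected counts and TPM per gene; Salmon is named in the submitters' processing notes with no version given in the sources used here, and the expected counts were rounded. The authors' deposited result tables hold log2 fold changes and adjusted p-values. A further 14 per-library columns were not used. The build was mm10, per the submitters' processing notes.

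Each kind of sample was fitted alone in edgeR 4.0.16 (R 4.3.3) with TMM scaling, filterByExpr by group and robust quasi-likelihood dispersion, and genes under 0.05 after Benjamini-Hochberg adjustment over all genes were called. The difference between the effects was tested in a joint fit of all 14 libraries. Keratinocyte FPKM were rescaled to TPM. The edgeR fits of each kind of sample without a block were tested on simulated data with known changes. The fits with a block and the joint fit were not. Genes were joined by Entrez ID, with 27179 keratinocyte and 24411 epidermis genes. Epidermis columns named WT and KO were read as p63alpha and p63beta, after the header of the keratinocyte count file, and carry no replicate numbers.

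The labels do not say what equal replicate numbers share. In keratinocytes, libraries numbered 1 and those numbered 2 deviated together from their group means (correlation over 12720 genes 0.534 and 0.483). For number 3 the correlation was 0.155, little above the 0.111 and 0.115 between numbers 2 and 3. Unequal numbers ran from -0.473 to 0.115. After centring in groups of 3, positive values for equal numbers force negative ones among unequal numbers. A pairing was therefore not established, and the fit with the number as a block was read as an alternative. Alternatives were RLE size factors, no filter, DESeq2 1.42.0, no robust estimation, limma 3.58.1 on log2(FPKM + 1), log2(TPM + 1) and the same with 0.1, leaving out each library, the block (added to the joint fit after the data were seen), and, in epidermis, a term for the naming style of the columns or the EP libraries alone.

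The 9 genes and the pathway and marker lists were chosen with earlier results of these data known. All 9 genes are named. From each pathway list the text names every called gene and, in each kind of sample, the gene with the largest absolute log2 fold change at a mean of at least 5 CPM. Other pathway genes named (those DESeq2 called, and examples of culture beside tissue) were chosen after their values were seen.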

Additional observations from a re-analysis of the deposited data

How the results depend on the processing

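None of the 9 lipid barrier genes passed in keratinocytes, in epidermis or in the difference between them under any alternative, 414 combinations of gene and setting in all. The direction of their log2 fold changes did turn in 54 of these, 41 of them with a library left out. Among the other settings, Aloxe3 in keratinocytes was -0.011 and -0.024 with limma (pseudocounts 1 and 0.1) and -0.018 with the replicate block, and Sdr9c7 was 0.0023 with limma (0.1) and 0.0043 with the replicate block. In epidermis limma gave Aloxe3 -0.032 at both pseudocounts and Cers3 -0.043 and -0.044, and the EP libraries alone gave Abca12 0.061 and Pnpla1 0.058. The joint fit with the replicate block for the keratinocyte libraries, added after the data were seen, gave differences between the kinds of -0.071 for Alox12b and 0.00026 for Pnpla1. Cers3 in epidermis over keratinocytes was 0.30 by CPM.

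With a library left out, keratinocyte log2 fold changes ran from -0.41 to 0.21 for Ugcg, -0.43 to 0.42 for Sdr9c7, -0.49 to 0.38 for Aloxe3, -0.52 to 0.57 for Elovl4, -0.48 to 0.41 for Pnpla1 and -0.014 to 1.04 for Alox12b. In epidermis they ran from -0.21 to 0.095 for Abca12, -0.12 to 0.069 for Pnpla1, -0.068 to 0.14 for Cers3 and -0.082 to 0.24 for Aloxe3. The differences between the kinds ran from -0.62 to 0.45 for Alox12b, -0.27 to 0.61 for Aloxe3, -0.37 to 0.73 for Elovl4, -0.011 to 0.63 for Ugcg, -0.42 to 0.49 for Pnpla1 and -0.70 to 0.15 for Sdr9c7. Cyp4f39 kept its direction in each comparison under every alternative.

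Of all genes, 14 were called in keratinocytes, 211 with DESeq2, 37 with the replicate block and 1 to 4 with a library left out. In epidermis 32 were called, 152 with DESeq2, 8 among the EP libraries and 10 to 28 with a library left out. Of pathway genes, DESeq2 called 4 in keratinocytes, and in epidermis 0 were called without the filter and among the EP libraries, and 0 to 1 with a library left out. The 19 other pathway genes named kept their direction in all 271 combinations, and only DESeq2 called any of them. With the replicate block 0 of the 9 genes and 0 pathway genes were called. No paired analysis was possible in epidermis because its columns carry no replicate numbers. The count of 6 genes at least 4-fold higher in epidermis was 5 without p63alpha keratinocyte library 3 and 6 otherwise. The causes were not tested.

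With 3 libraries a group, the intervals of 6 of the 9 genes reached past a 2-fold change in keratinocytes without the block.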
